A study of Oncorhynchus mykiss with 6 samples.

Results

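Haptoglobin, hepcidin and 2 further iron handling genes were examined in rainbow trout (Oncorhynchus mykiss) liver at 18 °C and after 8 h at 24 °C. The members were the rows of the deposited gene table whose symbol, case ignored, was HP or Cd163, or began with hamp or STEAP4. This gave 10 of the 5045 listed genes, with 2 copies of HP, 2 of hamp1, 4 of Cd163 and 2 of STEAP4. Only 4512 of the listed genes carried a symbol, so a gene without one could not be found here by name. Salmonid genomes keep many duplicated genes, and each copy is described on its own, numbered by its mean FPKM over all 6 libraries, from the highest, within its symbol.

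The control group (18 °C) and the heat group (24 °C for 8 h) each held 3 RNA-seq libraries of total RNA from liver tissue. Strain, age, sex and the number of fish are not given in the labels, and nothing in them ties each library to its own fish. The p-values therefore reflect library-to-library spread only, part or all of which may be technical. Those from limma-voom also borrow the spread of all tested genes, which the authors had selected on this contrast. They do not rest on each gene's own spread alone. The treatment label speaks of placing the liver itself at each temperature, whereas the design text speaks of the liver of trout at each temperature, so the heated unit is not clear from the sources used here. Counts summed over the listed genes ranged from 1409460 to 3586127 per library. Every listed gene had passed the authors' own threshold on this same contrast, the smallest log2 fold change in either direction in the authors' deposited table being 1.00019. Passing a test on it again is therefore no result, and genes outside the list were not analysed here.

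Haptoglobin is a plasma protein made by hepatocytes that binds free haemoglobin, and its level rises in the acute-phase response of many vertebrates. Hepcidin, the product of hamp genes, is a small liver peptide. In mammals it lowers plasma iron by causing the cellular iron exporter ferroportin to be degraded, and fish hepcidins are also known as antimicrobial peptides. In mammals, CD163 is the macrophage receptor that takes up haptoglobin bound to haemoglobin, and STEAP4 is a metalloreductase that reduces ferric and cupric ions. In mammals, transcription of the hepcidin gene is raised by bone morphogenetic protein (BMP) signals through SMAD proteins and by interleukin-6 through STAT3.

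All 10 members had higher levels at 24 °C, and in each of them the lowest heat library lay above the highest control library. The same absence of overlap held for 99.4% of the listed genes, in one direction or the other. With limma-voom, 9 members had enough counts to test (at least 10 in 3 libraries), and all 9 were higher in heat at an adjusted p under 0.05. Of all 4766 tested genes, 58.1% were higher and 41.9% lower by that rule, so that 100% were called. Of the tested members, both hamp1 copies and 3 Cd163 copies reached the count minimum only through their heat libraries, so the filter favoured a rise. The second hamp1 copy and these Cd163 copies had 0 to 2 counts in each control library and had to be higher in heat to be tested. For hamp1 copy 1, with 9, 6 and 16 control counts, the direction was favoured but not fixed. Nothing is read from the shared direction.

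**Figure D1:**
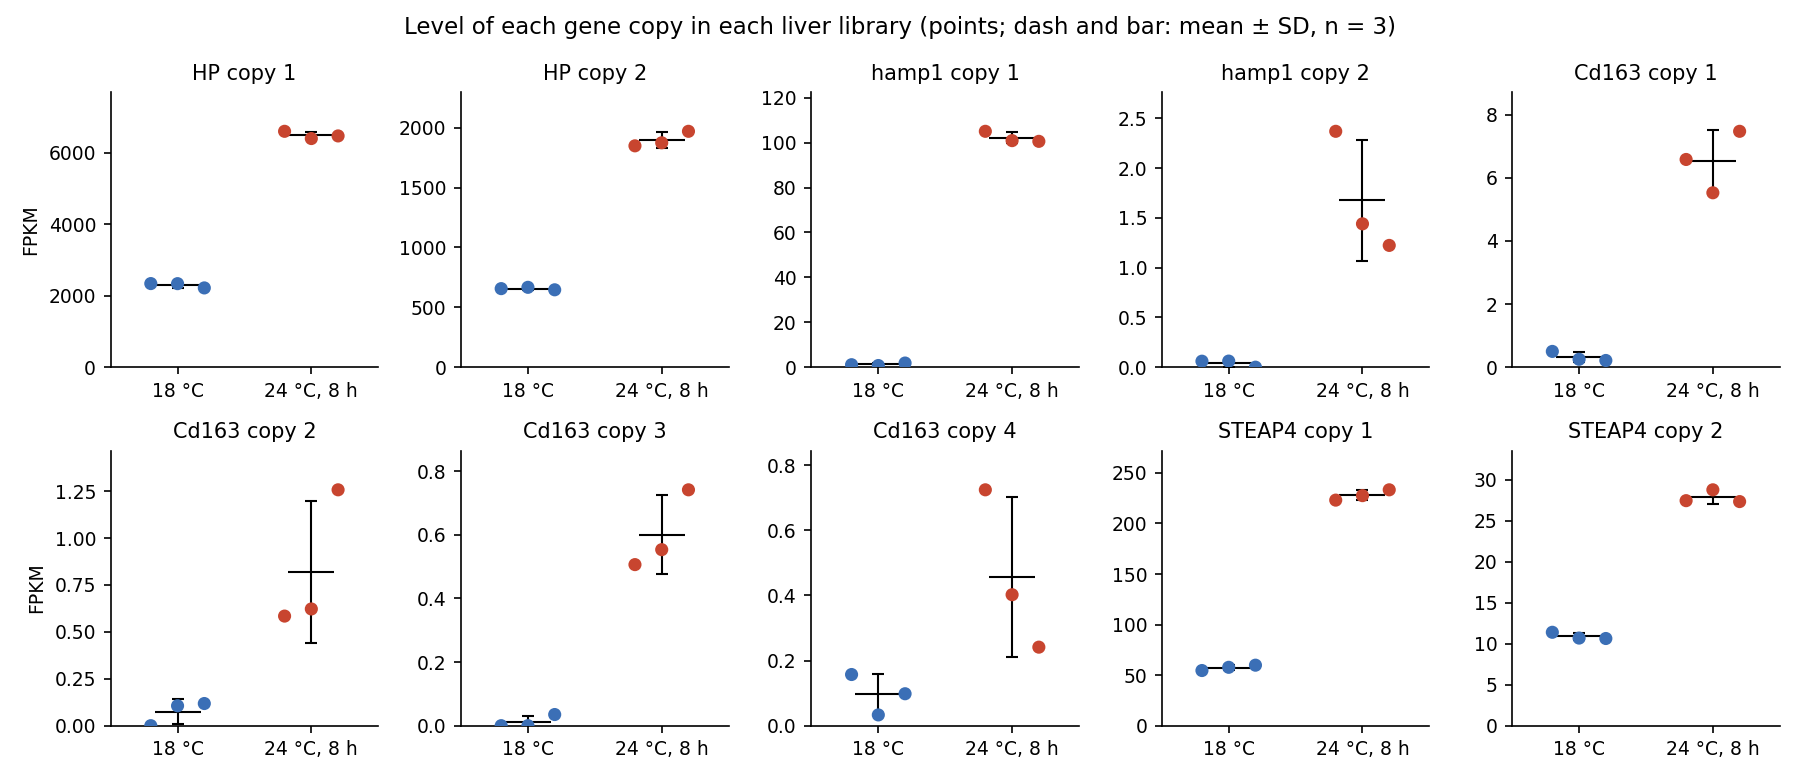
Level in FPKM (fragments per kilobase of transcript, scaled to library size, linear axes from 0) of the 10 gene copies, with 1 point per library, control in blue and heat in red, and the mean ± SD of 3 libraries in black. The groups do not overlap in any panel, and the axes differ by gene, with the highest library at 0.724 FPKM for Cd163 copy 4 and at 6601 FPKM for HP copy 1.

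Haptoglobin was the most abundant of these transcripts at both temperatures. HP copy 1 stood at 2339.7, 2337.6 and 2218 FPKM in control replicates 1 to 3 and at 6601, 6399 and 6472 FPKM in heat replicates 1 to 3. The 3 libraries of each group lay close together, far apart from those of the other group. Its mean of 2298 ± 69.6 FPKM rose to 6491 ± 103 FPKM (SD, n = 3). The log2 fold change was 1.498 ± 0.02 (SE), or 2.83-fold (limma-voom, adjusted p = 1.25e-49). By mean FPKM it was at rank 3 among the 5045 listed genes in control and at rank 1 in heat. In control the highest listed gene was rbp4, which encodes a plasma carrier of retinol made by the liver, at 5950 FPKM.

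HP copy 2 measured 656.1, 667.0 and 646.3 FPKM in the control libraries and 1849, 1874 and 1970.3 FPKM in the heat libraries. Heat replicate 3 was the highest here, whereas heat replicate 1 was the highest for copy 1. Copy 2 rose from 656.5 ± 10.4 to 1898 ± 64.0 FPKM, a log2 fold change of 1.55 ± 0.03 (SE) or 2.94-fold (limma-voom, adjusted p = 2.73e-43). It moved from rank 12 to rank 5 among the listed genes by mean FPKM. Together the copies gave 2955 ± 78.5 FPKM in control and 8389 ± 100.1 FPKM in heat. They took 3.91% ± 0.07 of the counts over the listed genes in control and 6.70% ± 0.14 in heat (SD, n = 3). This is not a share of the whole library, and counts over the listed genes rose more in heat than library totals did. The share in heat was thus only 1.71 times that in control, against 2.84 times for FPKM.

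The ratio between the haptoglobin copies was compared across temperatures. The FPKM of copy 1 over copy 2 was 3.57, 3.50 and 3.43 in the control libraries and 3.57, 3.41 and 3.29 in the heat libraries. These ratios overlapped between the groups, with means of 3.50 ± 0.07 and 3.42 ± 0.14 (SD, n = 3). The difference was -0.03 on the log2 scale (exact permutation test over the 6 libraries, two-sided, p = 0.5, and 0.5 after Benjamini-Hochberg adjustment over 2 such comparisons). With 3 libraries in each group this test cannot give a p below 0.1. Reads of near-identical copies can be split between them in the authors' counting, so the value of each copy is less certain than their sum.

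Hepcidin showed the largest change among the members. The first hamp1 copy had 9, 6 and 16 counts in the control libraries and 1621, 1216 and 1134 counts in the heat libraries. In FPKM it stood at 1.096, 0.732 and 1.84 in control and at 105.0, 100.9 and 100.6 in heat. The gene was thus low in every control library, and the 3 heat libraries lay close together at a much higher level. Its mean of 1.22 ± 0.563 FPKM rose to 102.2 ± 2.49 FPKM (SD, n = 3), from rank 2429 to rank 108 among the listed genes.

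The log2 fold change of this hamp1 copy was 6.68 ± 0.39 (SE), or 102.5-fold (limma-voom, adjusted p = 1.56e-21). Of the 4766 tested genes, 17 had a larger log2 fold change, among them a COL8A2 row at 6.75 with a mean of 0 FPKM in control. This place is approximate. With 1 library left out at a time, the log2 fold change of hamp1 copy 1 ranged from 6.37 to 7.03. The ratio of counts at equal library totals was 100.2, with an exact 95% interval of 70.5 to 147.7 that covers counting error only. The authors' deposited table gives 83.6-fold, from the ratio of mean FPKM. These values differ because the count that corresponded to 1 FPKM, after library totals were set equal, was 8.21, 8.21 and 8.51 in the control libraries and 9.93, 10.27 and 9.93 in the heat libraries. The heat value was 1.20 times the control value for this gene, whereas those of the other members lay between 0.965 and 1.018 times. Among the 2956 listed genes with at least 30 counts in each group and a mean of at least 1 FPKM, 90.8% had a ratio within 2% of 1, and 6, the hamp1 copy included, had a ratio at least this high. A gene's count per FPKM scales with the transcript length that the authors' software used in that library. What made it differ between the groups was not tested.

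The second hamp1 copy was rare. It had 1, 1 and 0 counts in the control libraries and 61, 28 and 23 counts in the heat libraries. In FPKM this was 0.06, 0.061 and 0 in control and 2.37, 1.44 and 1.22 in heat. Heat replicate 1 stood above the other heat libraries, and control replicate 3 had no count. At equal library totals the heat libraries had 43.8 times the counts of the control libraries, with an exact 95% interval of 11.8 to 366.2. The fitted log2 fold change was 4.77 ± 0.72 (limma-voom, adjusted p = 5.18e-08). At 24 °C the first copy had the far higher level per length, at 102.2 against 1.68 FPKM. The ratio of the copies was not tested, since 1 control library held no count of the second.

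**Figure D2:**
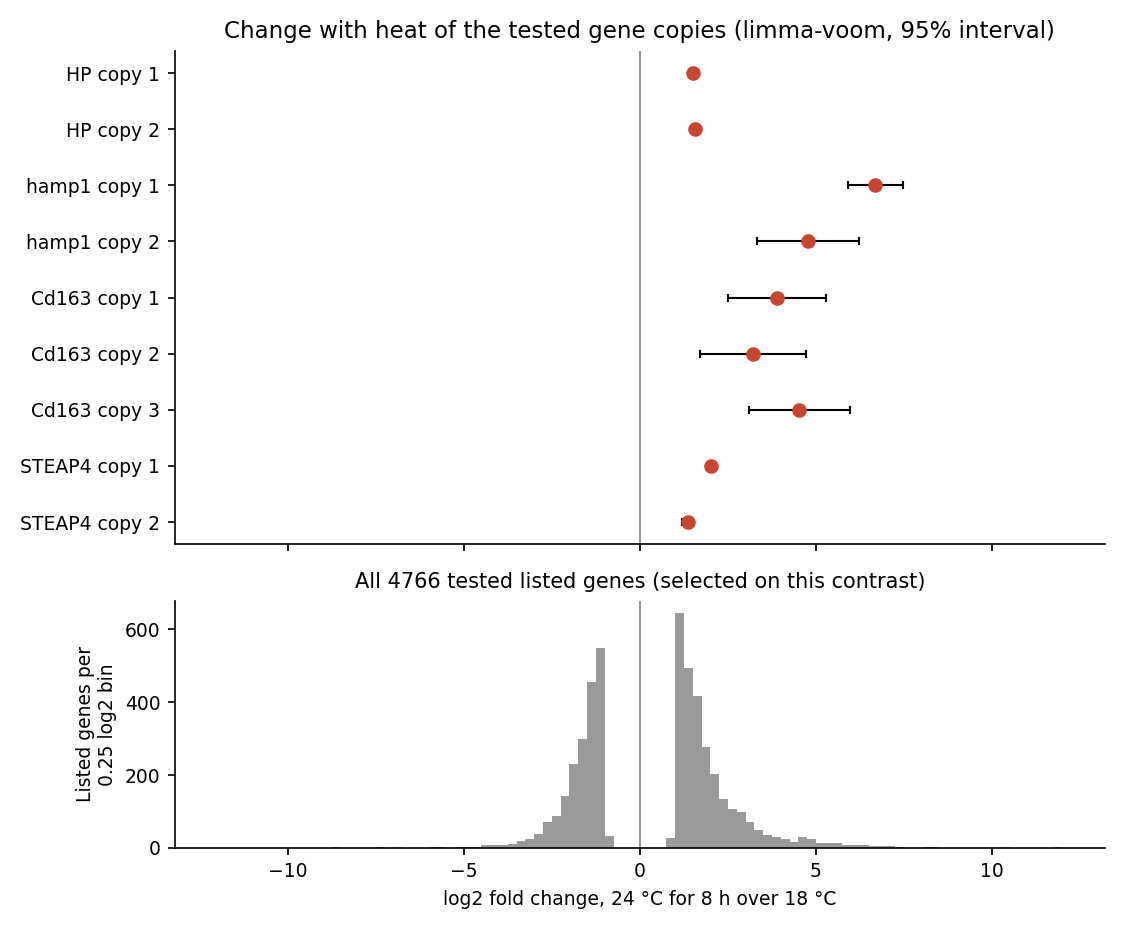
Top, log2 fold change of the 9 tested gene copies, 24 °C for 8 h over 18 °C, with 95% intervals from limma-voom, and bottom, the log2 fold changes of all 4766 tested listed genes in bins of 0.25. The hamp1 copies and the Cd163 copies lie at 3.22 to 6.68 with wide intervals, while the HP and STEAP4 copies lie at 1.35 to 2.01 with intervals narrower than or close to the symbols, and the gap around 0 comes from the authors' selection.

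The Cd163 rows were all close to the lower end of detection in control liver. The first copy had 2, 1 and 1 counts in the control libraries and 41, 26 and 34 counts in the heat libraries, or 0.499, 0.25 and 0.212 FPKM against 6.58, 5.52 and 7.47 FPKM. Its log2 fold change was 3.90 ± 0.69 (limma-voom, adjusted p = 1.35e-06), and the ratio of counts at equal totals was 19.8 (exact 95% interval 7.48 to 73.9). Its identifier begins with MSTRG, the default prefix in StringTie's merge mode. The length implied by its counts and FPKM was 0.218 times that of HP copy 1, the shortest among the members. Its FPKM of 6.52 ± 0.975 in heat therefore rests on only 101 counts.

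The second Cd163 copy had 0, 2 and 2 counts in the control libraries and 16, 13 and 25 in the heat libraries. Its mean was 0.0747 ± 0.0649 FPKM in control and 0.821 ± 0.378 FPKM in heat, a log2 fold change of 3.22 ± 0.75 or 9.32-fold (limma-voom, adjusted p = 0.000104). Without control replicate 1, the library with no count, the fold was 5.49. The third copy had 0, 0 and 1 counts in control and 22, 18 and 23 in heat. Its fitted log2 fold change was 4.53 ± 0.71 or 23.05-fold (limma-voom, adjusted p = 1.33e-07). The ratio of counts at equal totals was 49.3 (exact 95% interval 8.53 to 1977), and the width of that interval comes from the single control count.

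The fourth copy, spelled CD163, did not reach the count minimum and was not tested. It had 5, 1 and 3 counts in the control libraries and 34, 14 and 8 counts in the heat libraries, or 0.157, 0.033 and 0.098 FPKM against 0.724, 0.402 and 0.241 FPKM. Its lowest heat library was thus close to its highest control library. With no count filter its log2 fold change was 2.147 ± 0.63 (limma-voom, adjusted p = 0.00192).

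The 4 rows differ in their own description. The first copy's description begins with the letters of "scavenger", as in scavenger receptor, whereas those of the other 3 begin with "deleted". DMBT1 (deleted in malignant brain tumours), a secreted protein with the same kind of cysteine-rich scavenger receptor domain as CD163, is named in that way. The description column holds 8 characters, so it is not clear whether copies 2 to 4 encode CD163 or a related protein, and their symbol should be read with that doubt.

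In bulk tissue, more cells of a type and more RNA per cell cannot be told apart. Of 25 macrophage and Kupffer cell marker symbols, 1 was among the listed genes. This was MRC1, the mannose receptor, with 3 counts in all control libraries together and 169 in the heat libraries. Its FPKM was 0.01, 0 and 0.019 in control and 0.445, 0.392 and 0.414 in heat. The neutrophil list held 3 listed genes of 15 symbols, mmp9, mmp13 and csf3r, whose summed level was 1.57 to 2.39 FPKM in control and 6.39 to 6.75 FPKM in heat. Under median-of-ratios scaling, described below, mmp9 and mmp13 were past the threshold and csf3r was not. Of 11 lymphocyte symbols 2 were listed, IL7R and ZAP70, with a summed level of 1.01 to 1.84 FPKM in control and 2.82 to 2.96 FPKM in heat. IL7R was 3.06-fold higher (limma-voom, adjusted p = 2.49e-08), and ZAP70, too low to test, had a mean of 0.404 FPKM in control and 0.108 in heat. The description of the IL7R row begins with "uncharac", so its symbol should be read with doubt. None of 21 erythrocyte symbols was among the listed genes. The part of these cells in the Cd163 values was not tested. Of 18 hepatocyte symbols 2 were listed, rbp4 and APOB, with a summed level of 5711 to 6081 FPKM in control and 1914 to 2176 FPKM in heat. The first fell to 1998 FPKM and the second rose from 0.0877 to 26.3 FPKM. APOB and MRC1 met the count minimum only through heat, and no albumin symbol was found among the listed genes.

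STEAP4 was well expressed at both temperatures. Copy 1 stood at 54.5, 57.7 and 59.8 FPKM in control and at 223.1, 227.5 and 233.3 FPKM in heat. Its mean of 57.4 ± 2.66 FPKM rose to 228.0 ± 5.11 FPKM (SD, n = 3), with a log2 fold change of 2.01 ± 0.05 or 4.03-fold (limma-voom, adjusted p = 1.82e-37). Copy 2 stood at 11.4, 10.7 and 10.6 FPKM in control and at 27.5, 28.8 and 27.3 FPKM in heat. It rose from 10.9 ± 0.423 to 27.9 ± 0.799 FPKM, a log2 fold change of 1.35 ± 0.08 or 2.55-fold (limma-voom, adjusted p = 5.89e-21). Within each group the libraries of both copies lay close together.

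The ratio between the STEAP4 copies was higher in every heat library than in any control library. Copy 1 over copy 2 was 4.79, 5.40 and 5.62 in the control libraries and 8.12, 7.91 and 8.53 in the heat libraries. The group means were 5.27 ± 0.434 and 8.19 ± 0.317 (SD, n = 3), with a difference of 0.64 on the log2 scale or 1.56-fold. The exact permutation test, two-sided, gave p = 0.1, the smallest value that 3 against 3 libraries allow, and 0.2 after Benjamini-Hochberg adjustment over 2 comparisons, so the shift did not pass a threshold of 0.05. Whether this shift differs from that of the HP copies was not tested.

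**Figure D3:**
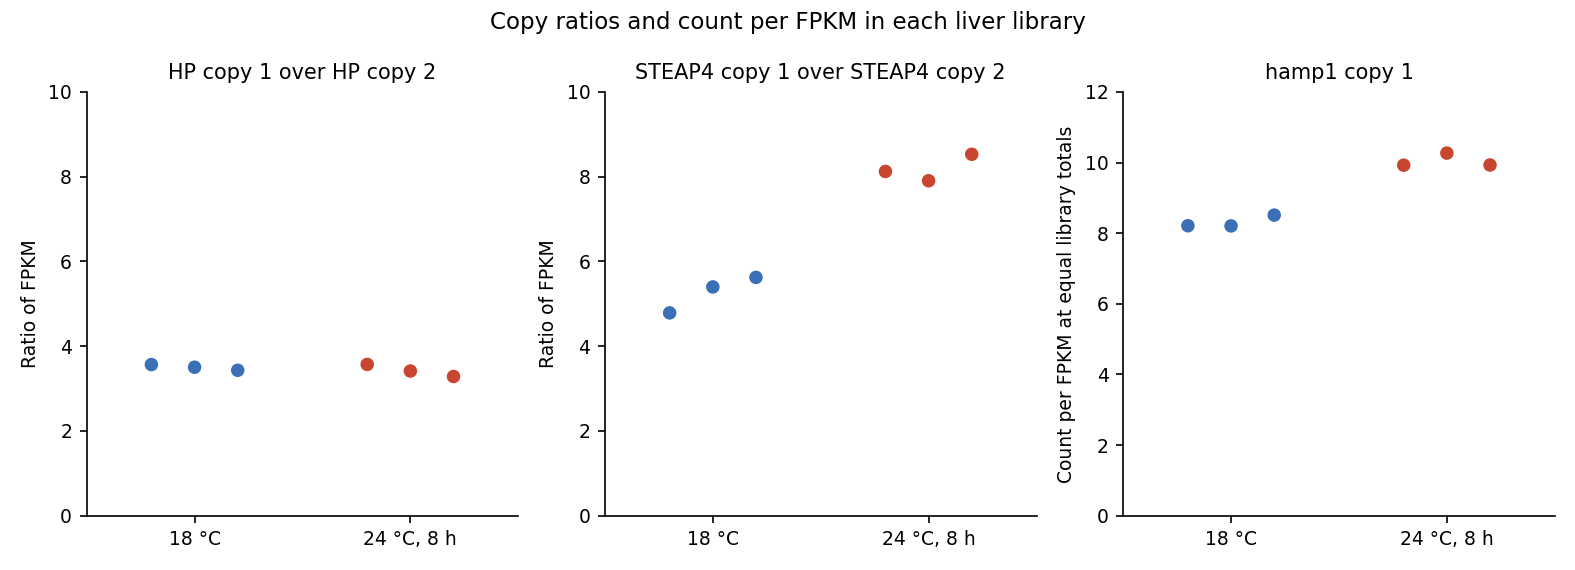
Ratio of FPKM between the 2 copies of HP (left) and of STEAP4 (middle), and count per FPKM at equal library totals for hamp1 copy 1 (right), with 1 point per library, control in blue and heat in red, on linear axes from 0. The HP ratios overlap between the groups at 3.29 to 3.57, the STEAP4 ratios are 4.79 to 5.62 in control and 7.91 to 8.53 in heat, and the hamp1 values are 8.21 to 8.51 in control and 9.93 to 10.27 in heat.

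By size, 6 of the 9 tested members were at least 4-fold higher, namely both hamp1 copies, Cd163 copies 1 to 3 and STEAP4 copy 1, against 19% of all tested genes. The hamp1 and Cd163 copies among them are the 5 that passed the count minimum only through heat. STEAP4 copy 1 lay at the limit, at 4.03-fold here and 3.97-fold in the authors' deposited table. Nothing is therefore read from this count. The median log2 fold change of all tested genes was 1.13, and that of the tested genes that were higher was 1.61. Both HP copies and STEAP4 copy 2 lay below the latter value.

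The other listed genes of iron transport, storage and reduction went both ways. Of 45 symbols looked for, 9 genes were in this preselected table, 6 of them higher and 3 lower in heat, with a median log2 fold change of 1.05. Over all tested genes 58.1% were higher, 41.9% were lower and the median was 1.13. The 3 lower genes included the most abundant of the list. The ferritin heavy chain gene fth1-a encodes a subunit of the iron storage protein ferritin. Its level fell from 138.8 ± 7.58 to 50.8 ± 4.91 FPKM, with libraries of 130.3 to 144.8 in control and 47.8 to 56.5 in heat (log2 fold change -1.44 ± 0.07, limma-voom, adjusted p = 1.74e-24). The transferrin receptor gene tfr1a, whose product takes up iron-loaded transferrin, fell from 20.8 ± 0.928 to 9.21 ± 0.375 FPKM (log2 fold change -1.18 ± 0.06, limma-voom, adjusted p = 1.68e-23). The melanotransferrin gene meltf fell from 0.916 to 0.219 FPKM. The summed level of the 9 genes was 159.2 to 173.5 FPKM in control and 74.1 to 82.1 FPKM in heat.

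The 6 higher genes of that list were low in both groups. Those for mitoferrins, which carry iron into mitochondria, were SLC25A37, from 0.118 to 0.906 FPKM or 7.82-fold, and 3 copies of slc25a28, up between 2.08-fold and 2.76-fold. SLC25A37 reached the count minimum only through its heat libraries, so it had to be higher to be tested. The endosomal ferrireductase gene steap3, a relative of STEAP4, rose from 0.548 to 1.32 FPKM. The frataxin gene fxn rose from 2.18 to 4.40 FPKM. Under median-of-ratios scaling steap3, fxn and the slc25a28 copies up 2.08-fold and 2.30-fold were not past the threshold. Symbols for transferrin and ferroportin were not found among the listed genes.

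Of 26 symbols of haem synthesis, breakdown and transport, 11 genes were listed and tested, 4 higher and 7 lower, with a median log2 fold change of -1.18. Of all tested genes in this preselected table, 58.1% were higher and 41.9% lower, with a median of 1.13. Haem genes outside the table were not analysed here. BLVRB, which encodes a biliverdin reductase, fell from 116.7 ± 2.29 to 52.4 ± 1.62 FPKM (log2 fold change -1.154 ± 0.06, limma-voom, adjusted p = 4.61e-23). The haem transporter gene slc48a1b fell from 51.1 ± 2.26 to 19.6 ± 0.469 FPKM (log2 fold change -1.38 ± 0.07, limma-voom, adjusted p = 4.69e-25). Also lower were BLVRA, the haem-binding protein genes hebp1 and HEBP2, and both copies of urod, an enzyme of haem synthesis, which fell 3.98-fold and 2.90-fold. HEBP2 reached the count minimum only through its control libraries. The higher genes were alas1, the first enzyme of haem synthesis, 2.18-fold, and PPOX, a later enzyme of the same pathway, 2.10-fold, together with abcb6a, which encodes a porphyrin transporter, 2.29-fold, and LRP1, which encodes a large endocytic receptor that binds the haem carrier haemopexin in mammals, from 14.4 to 32.2 FPKM. Under median-of-ratios scaling alas1, PPOX and abcb6a were not past the threshold. Symbols for haem oxygenase 1 and haemopexin were not found among the listed genes.

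Of 42 symbols linked to hepcidin regulation, 14 genes were listed and 13 tested, 7 higher and 6 lower, with a median log2 fold change of 1.152. These shares lie near those of all tested genes. Of the 13, jak1 copy 2, smad9 and ACVR1B reached the count minimum only through heat, and smad7 only through control. The filter thus favoured their direction, and nothing is read from it. One Socs3 copy, which encodes a feedback inhibitor induced by STAT3 in mammals, rose from 0.531 ± 0.18 to 5.62 ± 0.414 FPKM, with control libraries at 0.427, 0.427 and 0.739 and heat libraries at 5.97, 5.74 and 5.16 (log2 fold change 3.43 ± 0.25, limma-voom, adjusted p = 5.64e-18). The other Socs3 copy rose 2.28-fold, and copies 1 and 2 of the kinase gene jak1 rose 3.29-fold and 3.28-fold. The other Socs3 copy and jak1 copy 2 were not past the threshold under median-of-ratios scaling.

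The remaining genes of the list belong to BMP and activin signalling. The ID genes encode inhibitors of DNA binding and are, in mammals, induced by BMP signals. Both ID1 copies were lower, from 4.21 to 1.57 FPKM and from 5.85 to 2.83 FPKM, and id3-a fell from 6.85 to 3.19 FPKM. The inhibitory SMAD genes Smad6 and smad7 fell 2.84-fold and 4.40-fold. The receptor gene ACVR1 fell 2.02-fold, and the ligand gene bmp2, too low to test, had 43 counts in all control libraries together and 11 in the heat libraries. In the other direction, smad9 rose 2.75-fold, the receptor gene ACVR2A 2.22-fold and ACVR1B 5.88-fold. Under median-of-ratios scaling smad9 and ACVR2A were not past the threshold. ACVR1B entered the list through its spelling and encodes an activin receptor other than ACVR1. Changes in the hamp1 copies were not tested against those of any of these genes.

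**Figure D4:**
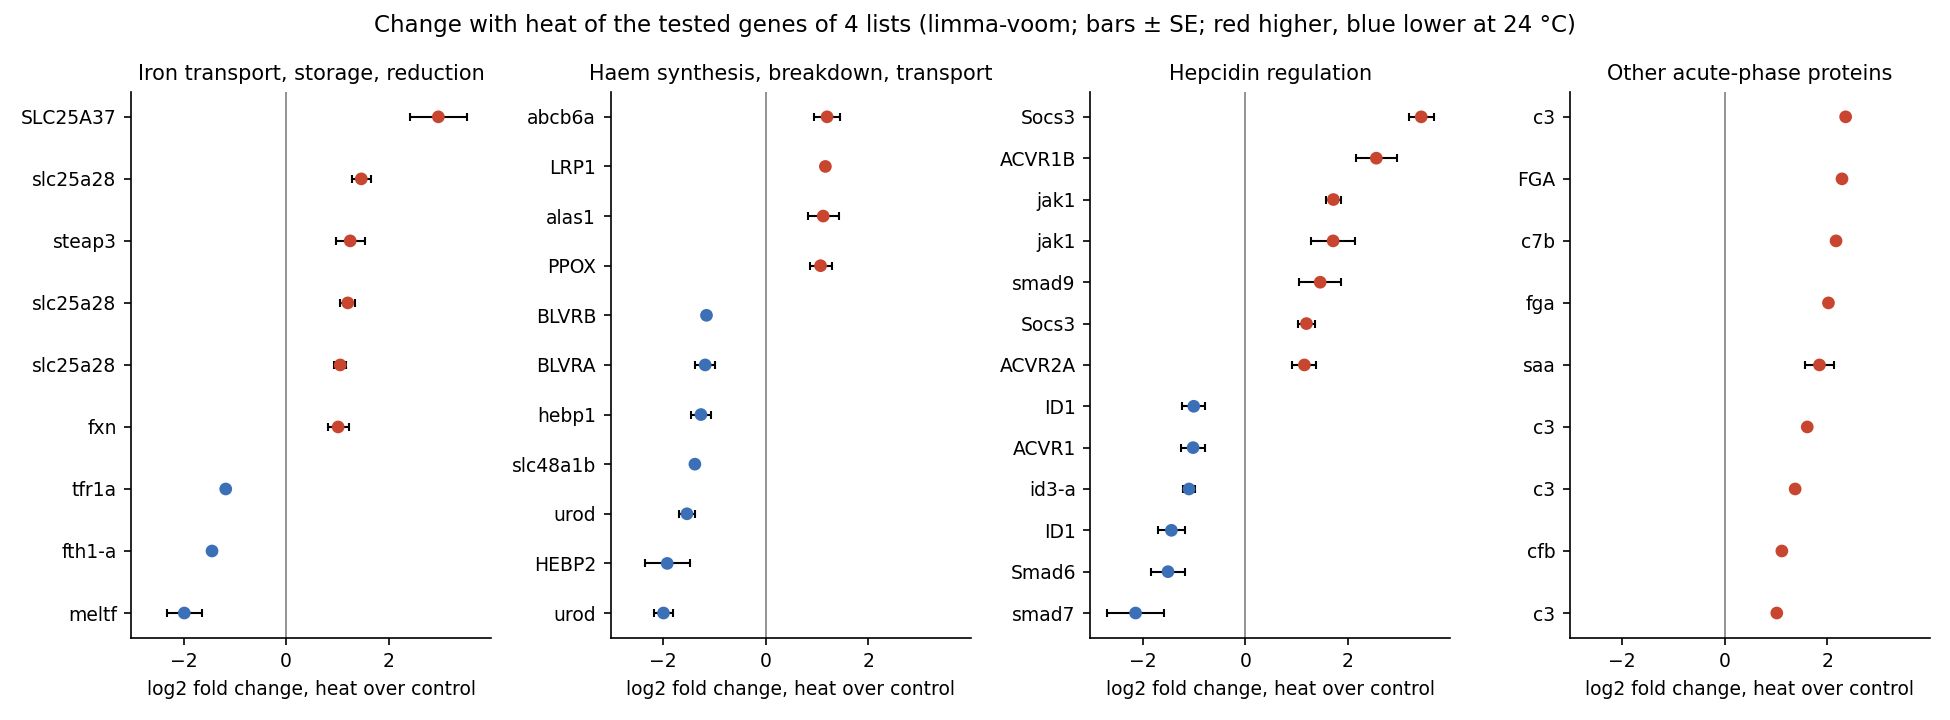
log2 fold change with heat (24 °C for 8 h over 18 °C, limma-voom, bars ± SE) of the tested genes in 4 lists, 1 point per gene copy, red for higher and blue for lower. Iron and haem genes and regulators of hepcidin lie on both sides of 0, with 6 and 3, 4 and 7, and 7 and 6 genes higher and lower, while all 9 further acute-phase genes lie above 0.

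Of 38 symbols of acute-phase proteins other than HP and hepcidin, 9 genes were in this preselected table. All 9 were higher, with a median log2 fold change of 1.84, where 58.1% of all tested genes were higher. Acute-phase genes outside the table were not analysed here. The 9 included 2 copies of the fibrinogen gene FGA, up 4.87-fold and 4.05-fold, and 4 copies of the complement gene c3, up between 2.02-fold and 5.11-fold. The serum amyloid A gene saa rose from 2.12 ± 0.294 to 7.74 ± 0.806 FPKM, and cfb, a complement factor and the most abundant of the 9, from 690.9 to 1492 FPKM. The terminal complement gene c7b rose 4.49-fold. Haptoglobin copy 1 was above all 9 in level in both groups.

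Median-of-ratios scaling takes most listed genes as unchanged. By the authors' fold changes none of the listed genes was unchanged, so that assumption fails on their scale. Values under this scaling show only how far the results depend on it. With it the median of all tested genes moved by -0.89 on the log2 scale, and under TMM by -0.49. The 9 tested members were higher under both scalings. With the former, 36.4% of all tested genes were higher and 41.9% lower. HP copies 1 and 2 were 1.52-fold and 1.58-fold higher, STEAP4 copies 1 and 2 were 2.17-fold and 1.37-fold higher, and the first hamp1 copy 55.2-fold, on this scaling. With it, 2 iron genes were higher, 3 lower and 4 not past the threshold (limma-voom, adjusted p of at least 0.05). For haem genes the counts were 1, 7 and 3, for hepcidin regulation 3, 6 and 4, and for the acute-phase genes 9, 0 and 0.

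The genes most like each member were taken as those with the smallest root-mean-square difference of the centred log2 count, scaled to library size, over the 6 libraries. With 2 groups this mostly compares the size of the rise. Nearest to HP copy 1 were hspe1 (0.020), vimp (0.043) and Gosr2 (0.045), with hspe1 going from 47.7 to 135.2 FPKM. For HP copy 2 they were Ugt2a2 (0.030), zp2.3 (0.030) and syvn1 (0.040). STEAP4 copy 1 was nearest to GBP3 (0.047), gnpnat1 (0.051) and sec23a (0.055), and copy 2 to slc31a1 (0.032), cyp3a27 (0.038) and Nsun2 (0.039).

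Members with few control counts had larger differences from their nearest genes. For hamp1 copy 1 the nearest genes were COL8A2 (0.398), CPLX3 (0.419) and diras1a (0.437), and for copy 2 TMEM269 (0.304), ddhd1a (0.367) and CREM (0.398). In control, COL8A2 and diras1a had a mean of 0 FPKM and CPLX3 of 0.0387. The differences of these genes from hamp1 copy 1 therefore depend on the small value added to each count before the log. So do the differences from hamp1 copy 2 and from Cd163 copies 2 and 3, each without a count in part of the control libraries. Cd163 copy 1 was nearest to TEF (0.146), SMIM11A (0.207) and MFAP4 (0.242). Copy 2 was nearest to UBB (0.268), NAF1 (0.385) and Fhod3 (0.544), and copy 3 to ins (0.149), CKAP4 (0.215) and cdc37 (0.372). Each name stands for a single row, and rows of the same symbol can go the other way. Other rows of UBB, MFAP4 and cyp3a27 had log2 fold changes of -1.54, -4.27 and -1.33. The description of the COL8A2 row used here begins with "compleme", so its symbol should be read with doubt.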

How the data were processed

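Per the labels' protocols, total RNA was extracted from liver and sequenced as cDNA libraries. The submitters' processing notes name Bowtie2 2.2.8 and StringTie. Build, annotation and the authors' test are not given in the sources at hand. Per the file headers, the deposited table holds whole-number counts and FPKM values per library and the authors' log2 fold change. Its columns are 8 characters wide, so identifiers and descriptions are truncated, copies are told apart by their values, and the authors' p-values, which lose a digit of a long exponent, are not printed. None of the member symbols was found in RefSeq's gene table (assembly USDA_OmykA_1.1), so no coordinates or sequences are given.

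Library totals relative to control replicate 1 were recovered from count over FPKM (451 genes with at least 200 counts and 5 FPKM). They were 0.999 and 1.02 for the other control libraries and 1.55, 1.17 and 1.14 for the heat libraries. Absolute depth is unknown. limma-voom (limma 3.58.1, R 4.3.3) was fitted over all genes with at least 10 counts in 3 libraries, with Benjamini-Hochberg adjustment across all 4766. Because of the fixed width, count columns could not be verified by column, so edgeR and DESeq2 were not used. limma-voom and the exact intervals still take these columns as counts. Another 822 wrapped lines were left out. Members, gene lists and tests were chosen with earlier results of these data known. All members and all listed genes of the 4 pathway lists are named or counted, apart from 1 gene that is not reported here and is in none of the lists' counts, and for each tested member with at least 50 counts the 3 most similar genes with an informative symbol and at least 1 FPKM. Copy ratios, exact tests and figures used Python 3.11.15, scipy 1.17.1 and matplotlib 3.10.9. Exact intervals cover counting error only.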

Additional observations from a re-analysis of the deposited data

How the results depend on the processing

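The 9 tested members were refitted under 2 other scalings, other count filters, a log2 scale with 1 or 0.1 FPKM added, a replicate block and without each library. All 113 values were higher and past the threshold (largest adjusted p 0.00704, Cd163 copy 2 without control replicate 1). This is no sign of stability, since the table was preselected on the contrast and 5 of the 9 passed the filter only through heat. Cd163 copies 1 to 3 were too low for the filter of 50 counts in 3 libraries, and so was hamp1 copy 2. With 1 FPKM added, low genes were understated, and Cd163 copy 3 had a log2 difference of 0.66 in place of 4.53. Of the listed genes, 1733 (36.4%) were higher and 1996 (41.9%) lower with median-of-ratios scaling, in place of 2770 and 1996. With the filter of 50 counts, which fewer genes met, 2071 were higher and 1201 lower. Deviations from the group mean had correlations of 0.027, 0.012 and -0.009 between same-numbered libraries. The other pairs of a control and a heat library gave -0.041 to 0.030. Whether same-numbered libraries shared a batch cannot be told from these values. With the replicate block the log2 fold changes of HP copy 1 and hamp1 copy 1 were 1.498 and 6.58, and 2770 listed genes were higher. Depth limits hamp1 copy 2 and the Cd163 copies, with 1 to 9 counts over the control libraries.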
